A study of Mus musculus with 3 samples.

Results

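Hat1 and Set, chromatin regulators that handle free histones, were each targeted with pooled siRNAs in an siRNA screen of early reprogramming, and the libraries carrying these labels were examined here. They were chosen by library name, siHat1 and siSet with 3 libraries each, which gave 6 of the 127 libraries that passed the quality filter of the authors. The cells were wild-type BL6 primary mouse embryonic fibroblasts (MEFs), reprogrammed at passage 2 after transduction at an MOI of 1 with rtTA and tet-STEMCCA lentiviruses, which carry doxycycline-inducible Oct4, Sox2, Klf4 and c-Myc. They were reverse transfected with 40 nM siRNA and replated a day later in medium with 2 µg/mL doxycycline, 3 µM chiron, 0.25 µM Alk5 inhibitor, 50 µg/mL ascorbic acid and LIF. RNA of the bulk cultures was collected on reprogramming day 6. The controls were 3 libraries with a non-targeting siRNA (nt), 5 libraries of a mock transfection (Mock) and 92 libraries of 31 other siRNA conditions, all of the same age and carrying the same transgenes. A time course of untransfected reprogramming cells gave a further 21 libraries. Each replicate number is a pool in which all barcoded libraries of that replicate were sequenced together by CEL-Seq2, a 3′ end method that counts unique molecules. The study names triplicate transfections, but the sources used here do not tie the replicate number to separate MEF preparations. The p-values over all genes rest on a spread between libraries estimated over all 127, the untransfected ones included, not on these groups alone. They do not speak for further MEF preparations, and the exact Poisson p-values of the targets hold counting error only. Every cell of a well is pooled, so fewer cells of a kind and less RNA per cell cannot be told apart.

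HAT1 is the acetyltransferase that marks newly made histone H4 in the cytoplasm. It acts with the histone-binding protein RBBP7, before chaperones such as NASP, ASF1 and CAF-1 carry H3-H4 to replicating DNA. SET, also called TAF-I, is an acidic chaperone of the nucleosome assembly protein family that binds core histones and the linker histone H1. It also shields histone tails from acetyltransferases and inhibits the phosphatase PP2A. Nucleophosmin (Npm1) and its relative Npm3 are nucleolar chaperones of the nucleoplasmin family, which are abundant in dividing cells.

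The siRNA library of the study lists a pair of siRNAs for each gene, shown here because the label check rests on them. The methods describe pools with more siRNAs per gene than are listed, so the pools used may have held another, and the matches given cover only those listed. The strand given is the antisense strand, 5′ to 3′, and the capitals mark its seed, bases 2 to 8.
siHat1 siRNA 1: uGGUAUUUcacaagccauctt
siHat1 siRNA 2: cUAGUUUCagcucgauugctg
siSet siRNA 1: gUUCUGCUgauucucccautg
siSet siRNA 2: aGACACCUcaaacccaccctt
All 19 paired bases of each siRNA matched transcripts of its target, and 0 other annotated genes matched any of the 4 listed. In mm10, siHat1 siRNA 1 lies in the 3′ UTR of Hat1, in exon 11 (chr2:71441500-71441518, plus strand). The site of siHat1 siRNA 2 is in coding sequence of exon 2 (chr2:71389980-71389998). Both siSet siRNAs match the 3′ UTR in exon 8 of Set, at chr2:30071607-30071625 and chr2:30071453-30071471, on the plus strand.

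Depth differed strongly within this group. The siHat1 libraries held 113062, 110581 and 214087 counts in pools 1 to 3, the deepest average of the 33 siRNA conditions. The siSet libraries held 29656, 41161 and 69609 counts, the shallowest average, and the first of them was the smallest of all 127 libraries (range 29656 to 235292, median 73279). The nt libraries held between 75100 and 143156 counts, and the Mock libraries between 38925 and 83089. The share of counts from the mitochondrial genome was 19.9% to 23.4% in siHat1, 25.3% to 31.4% in siSet, 22.8% to 26.3% in nt and 22.9% to 28.6% in Mock. All 10 fibroblast markers were detected in siHat1 and in siSet, with summed levels of 1513 to 1636 and 1049 to 1517 CPM (the counts-per-million unit), against 1236 to 1878 in nt. Of the 8 macrophage markers 7 were at 0 in both, and the endothelial, muscle, neural and keratinocyte lists summed to at most 19 counts in either.

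The target RNA was measured first in every library. Levels below are in CPM, relative to the counts in tested genes and after scaling between libraries, and differences are log2 fold changes with the SE of the fit. Hat1 (chr2:71388958-71441622) stood at 195, 214 and 356 CPM in the siHat1 libraries of pools 1 to 3 and at 350, 239 and 278 CPM in nt. The groups overlapped, and the highest siHat1 library lay above all nt libraries. Over the siHat1 libraries 106 Hat1 counts were observed against 96.2 expected at the share of Hat1 in all remaining transfected libraries, pool by pool, a ratio of 1.10 (95% exact Poisson interval 0.902 to 1.33, counting error only; exact two-sided p = 0.308, adjusted p = 0.308 over both targets). In the fit over all genes, siHat1 differed from nt by -0.09 ± 0.27 in Hat1 (edgeR, adjusted p = 0.984). A lower level of Hat1 RNA was therefore not seen in the libraries labelled siHat1 at this depth.

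Set (chr2:30057378-30072577) stood at 525, 385 and 593 CPM in siSet against 616, 688 and 556 CPM in nt, and at 375 to 621 CPM in Mock. The pool 3 siSet library lay within the nt range and the other siSet libraries lay under it. Set counts in siSet numbered 58 against 71.8 expected, a ratio of 0.808 (interval 0.614 to 1.04; exact two-sided p = 0.111, adjusted p = 0.221). The fitted difference from nt was -0.25 ± 0.25 (edgeR, adjusted p = 0.868). Set has processed pseudogenes close to its sequence, and with their counts added the difference was 0.03 ± 0.21. In the siHat1 libraries Set had a ratio of 1.14 (exact two-sided p = 0.0401, adjusted p = 0.16 over the 4 ratios of both genes in both conditions). Among the 35 transfected conditions ordered from the lowest mean, siHat1 ranked 15 for Hat1 and siSet ranked 8 for Set. These intervals hold counting error only, and the libraries spread more widely, so they set no limit on a reduction. Neither label was borne out by its target's RNA on day 6, and earlier days were not measured for these libraries. Below, siHat1 and siSet name the libraries that carry those labels, in every direction given. For the 31 siRNAs labelled with a gene symbol of the table, 0 targets passed an adjusted p of 0.05 by the same exact Poisson test, and 1 an unadjusted p of 0.05 (Hdac1, which was higher). Hat1 and Set had the largest expected counts of these targets, the next being Eny2 with 39.9.

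**Figure D1:**
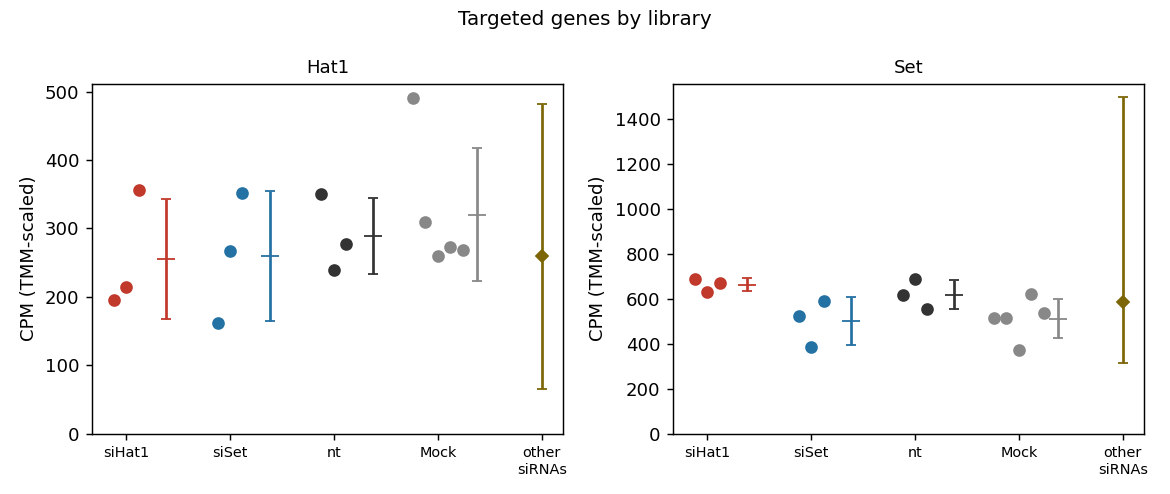
Hat1 (left) and Set (right) in CPM per library, grouped as siHat1, siSet, nt, Mock and other siRNAs; points are libraries, bars the mean ± SD, and the diamond the median of 92 libraries with their lowest and highest value. Hat1 in siHat1 (195 to 356 CPM) and Set in siSet (385 to 593 CPM) overlap the nt libraries.

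Against nt, few of the 3013 genes tested passed an adjusted p of 0.05 (edgeR, with the pool as block). siHat1 differed from nt in 12 genes (0.398% of those tested), of which 4 were higher and 8 lower. siSet differed in 12 genes as well (0.398%), with 7 higher and 5 lower. Without the pool term both counts were 0, with the same nt libraries. All 24 differences had the same sign in each of the 3 pools. A test with the pool as block favours such differences, so this is no separate support. Both comparisons use the same 3 nt libraries, so agreement between them is not independent. At an unadjusted p of 0.05, 205 genes (6.8%) were past the threshold for siHat1 and 264 (8.76%) for siSet. Of the called genes, 8 of 12 for siHat1 and 10 of 12 for siSet belong to families of a gene and its near copies, among which reads of a short 3′ tag can be split. The families were drawn up around genes that called genes resemble. The share of all tested genes with such copies was not determined, so no enrichment can be read from these counts.

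The calls with the lowest adjusted p against nt were processed pseudogenes of Npm1, the nucleolar histone chaperone. Gm5611 (chr9:17030045-17030896, 95% identical to Npm1) read 2582, 2947 and 1843 CPM in siHat1 and 2505, 2517 and 2908 CPM in siSet, against 5262, 6057 and 4501 CPM in nt. No siHat1 or siSet library reached the lowest nt library. The difference from nt was -1.12 ± 0.18 in siHat1 (adjusted p = 9.5e-06) and -0.95 ± 0.20 in siSet (adjusted p = 0.00401). Gm17060 (88.8% identical) fell by 1.05 ± 0.18 and 0.94 ± 0.20 on the log2 scale, and Gm14776 (83.0%) fell by 0.82 ± 0.19 and 1.23 ± 0.22. Gm14681 (97.4%) fell by 0.76 ± 0.18 in siHat1, and read -0.58 ± 0.20 in siSet, where it was not called (adjusted p = 0.218).

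Npm1 itself (chr11:33152287-33163206) was not called. It read 4640, 5016 and 5847 CPM in siHat1, 5010, 5063 and 6502 CPM in siSet and 5729, 5997 and 6977 CPM in nt. These ranges overlap, and the differences from nt were -0.27 ± 0.13 (adjusted p = 0.723) and -0.17 ± 0.14 (adjusted p = 0.829). Of the 6 copies tested, 4 were called lower in siHat1 and 3 in siSet, beside 0.266% and 0.166% of all genes, and the fitted differences ran from -1.12 to -0.01 and from -1.23 to -0.44. Since reads of Npm1 and its copies could be divided in counting, the gene and its copies were also summed. The sum read 13635, 14551 and 13294 CPM in siHat1, 14362, 12461 and 15436 CPM in siSet, and 22508, 23106 and 21972 CPM in nt. Against nt the Npm1 sum fell by 0.70 ± 0.15 on the log2 scale in siHat1 (adjusted p = 0.0124) and by 0.67 ± 0.15 in siSet (adjusted p = 0.0157). The share of the summed counts assigned to Npm1 was 34.0% to 45.0% in siHat1, 37.1% to 40.7% in siSet and 25.0% to 32.3% in nt.

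The summed level was also compared across the screen. The nt mean of the Npm1 sum was the highest of 35 transfected conditions, Mock ranked 30, siSet 19 and siHat1 17 from the lowest. Single copies differed in this order. For Gm14776 siSet ranked 3 from the lowest and nt was the highest, and for Gm14681 nt ranked 34 and siApex1 was the highest. The 92 other siRNA libraries had a median of 14160 CPM (5925 to 25232). Against these other siRNAs Gm5611 differed by -0.16 ± 0.13 in siHat1 (adjusted p = 0.727) and by 0.01 ± 0.15 in siSet (adjusted p = 1). There 0 of the 6 copies were called in either, beside 1.33% and 0.0996% of all genes, shares at which no call among 6 would be expected. In Mock the sum ranged from 15091 to 21228 CPM, above every siHat1 library and overlapping siSet. Against Mock, Gm5611 fell by 0.72 ± 0.17 in siHat1 (adjusted p = 0.00648) and read -0.55 ± 0.19 in siSet (adjusted p = 0.693). The Npm1 sum was not called against Mock, at -0.46 ± 0.14 in siHat1 (adjusted p = 0.0534) and -0.43 ± 0.14 in siSet (adjusted p = 0.759). The untransfected day 6 libraries read 4343 to 4821 CPM, under all siHat1, siSet, nt and Mock libraries.

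**Figure D2:**
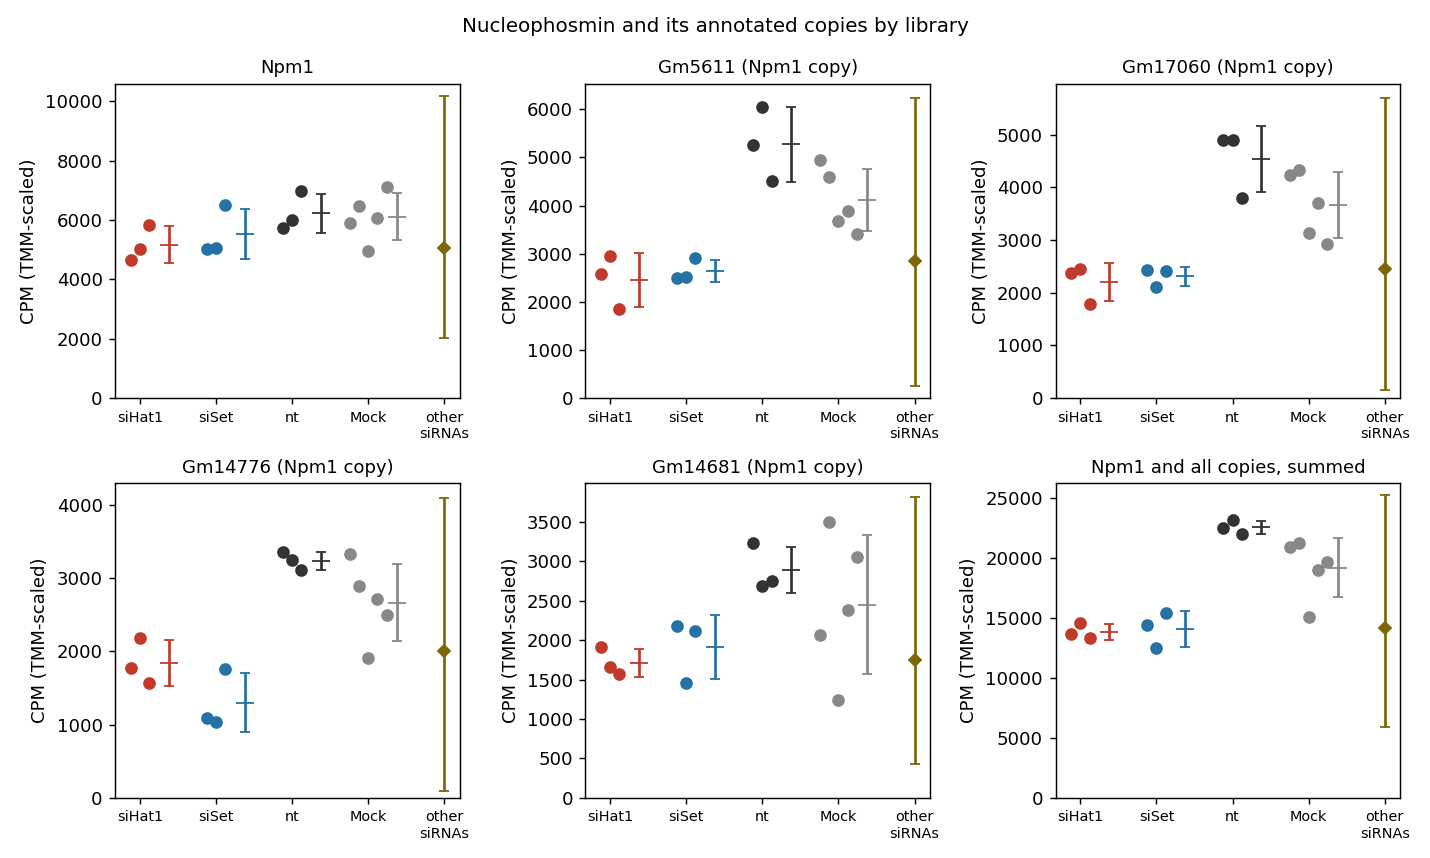
Npm1 and its tested copies in CPM, for Npm1, 4 named copies and the sum, per library of siHat1, siSet, nt, Mock and the other siRNAs; points are libraries, bars the mean ± SD, and the diamond the median of 92 libraries with their range. The nt libraries (21972 to 23106 CPM summed) sit above all siHat1 and siSet libraries, and the median of the other siRNAs is 14160 CPM.

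Beside the Npm1 copies, 4 genes were called lower in siHat1 than in nt. Dut, the dUTPase that keeps uracil out of replicating DNA, read 453, 257 and 260 CPM in siHat1 and 716, 808 and 441 CPM in nt. It was lower in each pool, with a difference of -0.98 ± 0.22 (adjusted p = 0.00607), while Mock ranged from 240 to 496 CPM and the other siRNAs had a median of 461 CPM. Zfp266, a zinc finger protein, read 30.9, 85.7 and 101 CPM in siHat1 against 216, 329 and 163 CPM in nt, a difference of -1.49 ± 0.38 (adjusted p = 0.0349) that rests on 30 and 55 counts. With copies of other genes summed, Zfp266, Fundc2 and H19 each had an adjusted p of 0.0759, at little changed differences of -1.47, -0.88 and 0.85. The Mock libraries, at 57.7 to 124 CPM, overlapped siHat1. Fundc2, a mitochondrial outer membrane protein, read 412, 397 and 234 CPM in siHat1 and 733, 733 and 457 CPM in nt. It fell by 0.89 ± 0.23 on the log2 scale against nt (adjusted p = 0.0352) and by 0.84 ± 0.23 against Mock (adjusted p = 0.0231). Gm6204, a copy of the ribosomal protein gene Rps14, fell by 0.80, and with Rps14 and its copies summed the difference was -0.43 ± 0.14 (adjusted p = 0.322).

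H19, the imprinted non-coding RNA, was higher in siHat1. It read 1677, 1415 and 1142 CPM against 849, 1092 and 539 CPM in nt, with no overlap and a difference of 0.84 ± 0.22 (adjusted p = 0.0399). H19 was also called higher in siHat1 than in the other siRNAs (0.59 ± 0.14, adjusted p = 0.00678), and not against Mock (0.29 ± 0.20, adjusted p = 0.59). In siSet it read 834 to 1836 CPM, a difference from nt of 0.66 ± 0.26 (adjusted p = 0.336). Gm10717 and Gm21738, both of a family of 12 near copies, rose by 0.97 ± 0.22 and 0.97 ± 0.20 in siHat1. The family summed to 11763 to 12249 CPM in siHat1, 5461 to 8200 CPM in nt and 10648 to 18778 CPM in Mock. Its sum was called higher in siHat1 than in nt (0.80 ± 0.18, adjusted p = 0.019), and not against Mock (-0.24 ± 0.16, adjusted p = 0.634). Gm13340, a copy of mt-Co1, rose by 0.61, and summed with mt-Co1 and the other copies the difference was 0.24 ± 0.13 (adjusted p = 0.809).

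In siSet, the genes called higher than nt included Eif4a3 and Cpe. Eif4a3, the RNA helicase of the exon junction complex, read 323, 148 and 185 CPM in siSet against 117, 29.9 and 32.7 CPM in nt. The difference was 1.94 ± 0.50 (adjusted p = 0.0441) on 23 and 13 counts, and Eif4a3 has 3 near copies. Its adjusted p was 0.065 when copies of other genes were summed, with the difference still at 1.94. Cpe, carboxypeptidase E, read 646, 681 and 685 CPM in siSet and 433, 464 and 155 CPM in nt, which do not overlap. It rose by 1.11 ± 0.27 (adjusted p = 0.02), and was also called in the direct comparison (siHat1 minus siSet -0.95 ± 0.25, adjusted p = 0.0361). mt-Nd4l, a subunit of respiratory complex I, and its identical nuclear copy Gm10222 rose by 0.98 ± 0.25 and 1.05. Their sum read 4214, 2042 and 2325 CPM in siSet, 1601, 1469 and 1065 CPM in nt and 1741 to 4540 CPM in Mock. The sum was called against nt (1.04 ± 0.22, adjusted p = 0.0061), and not against Mock (0.04 ± 0.20, adjusted p = 0.979). mt-Co3, of cytochrome c oxidase, and its copy Gm28437 rose by 0.48 and 0.53, and the sum of mt-Co3 and its copies by 0.52 ± 0.13 (adjusted p = 0.0436). Gm7600, a copy of the ribosomal protein gene Rps3a1, rose by 0.92. With Rps3a1 and its copies summed the difference was 0.58 ± 0.15 (adjusted p = 0.065). The higher share of mitochondrial counts in siSet is summed from the mitochondrially encoded genes, these included, and is no separate observation.

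Mt2, a metal-binding metallothionein, was lower in siSet. It read 364, 592 and 741 CPM in pools 1 to 3 against 699, 1107 and 1805 CPM in nt, lower in each pool, with a difference of -1.08 ± 0.23 (adjusted p = 0.00401). Mock read 619 to 922 CPM, and siSet minus Mock was -0.50 ± 0.24 (adjusted p = 0.792). Rplp0, of the ribosomal stalk, read 525, 829 and 611 CPM in siSet and 1216, 1211 and 1217 CPM in nt, a difference of -0.89 ± 0.21 (adjusted p = 0.0155). With its copies summed the difference of Rplp0 was -0.57 ± 0.18 (adjusted p = 0.145). Leaving out the shallow pool 1 library of siSet reduced the siSet calls against nt from 12 to 3.

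As a single group, siHat1 and siSet differed from nt in 7 genes (0.232% of those tested), 2 higher (0.0664%) and 5 lower, and in 208 (6.9%) at an unadjusted p of 0.05. The 5 lower genes were Gm5611, Gm17060, Gm14776, Gm14681 and Rplp0, and the 2 higher were Gm21738 and Gm10717. Without the pool term 3 genes were called. With copies summed, 1 feature was called, the Npm1 sum (-0.69 ± 0.13, adjusted p = 0.000445). Against Mock, the group differed in 11 genes (0.365%), all lower, and without the pool term in 0, although 259 (8.6%) were past an unadjusted p of 0.05 with it.

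Mock gave different counts for the 2 siRNAs. siHat1 differed from Mock in 56 genes (1.86%), with 20 higher and 36 lower, and siSet in 1 (0.0332%), Gm14776, which fell by 0.93 ± 0.21 (adjusted p = 0.0497). Without the pool term the counts were 14 and 0, and with it 179 genes (5.94%) were past an unadjusted p of 0.05 for siSet. The difference between the counts was not tested. Mock itself differed from nt in 47 genes (1.56%). The largest calls for siHat1 were led by Mid1, an E3 ubiquitin ligase, which had 3 counts in siHat1 and 19 in Mock, a ratio of 0.0952 (95% counting interval 0.0181 to 0.324). Npm3 fell by 1.96 ± 0.40, Tspan4, a tetraspanin, by 1.85, Lamtor4, of the lysosomal Ragulator complex, by 1.69, and the mitochondrial tRNA gene mt-Tm by 1.64. Mllt3, a reader of acylated histones, rose by 2.04 ± 0.57, and Tcf12, a basic helix-loop-helix factor, by 1.52. Gm10290 and Gm10184 rose by 1.80 and 1.53, and Gm3695 by 1.48. Gapdh and its copies summed to 6927 to 9933 CPM in siHat1 and 2384 to 5927 CPM in Mock, a difference of 1.07 ± 0.16 (adjusted p = 9.3e-07), while the nt libraries read 6745 to 8984 CPM.

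The other siRNAs formed a control with many libraries that uses neither nt nor Mock. siHat1 differed from them in 40 genes (1.33%), 32 higher and 8 lower, and siSet in 3 (0.0996%), all higher. Without the pool term these counts were 3 and 0, and with it 275 genes (9.13%) were past an unadjusted p of 0.05 for siSet. In siHat1 Slc2a3, the glucose transporter GLUT3, read 185, 129 and 95.6 CPM, against a median of 39.7 CPM and a maximum of 291 CPM over the 92 other libraries, and rose by 1.69 ± 0.33 (adjusted p = 0.000912). Gm12537 rose by 1.35, Krtdap, a keratinocyte protein, by 1.31, Casp8, an initiator caspase, by 1.28, and Gm10290, a Gapdh copy, by 1.24. Of the 46 Gapdh copies tested 11 were called higher than in the other siRNAs, beside 1.06% of all genes. These copies can share reads, and their sum with Gapdh rose by 0.67 ± 0.12 (adjusted p = 9.5e-05). Ahcyl1 fell by 1.39 ± 0.39, Acta2, smooth muscle actin, by 1.29 ± 0.35, Npm3 by 1.19 ± 0.31, Eny2, of the SAGA deubiquitinase module, by 1.15, and Mrpl35, of the mitochondrial ribosome, by 0.94. The calls in siSet were Hsp90aa1, a cytosolic chaperone (0.42 ± 0.09, adjusted p = 0.0486), Gm10222 (0.76 ± 0.18) and Gm15500, a copy of Rpl5 (0.54 ± 0.13). Summed with Rpl5 and its other copies the last was 0.41 ± 0.11 (adjusted p = 0.0687), no longer called. The sum of mt-Nd4l and Gm10222 was called (0.76 ± 0.16, adjusted p = 0.0107). Leaving out pool 3 left 1 call for siHat1 and 0 for siSet.

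Compared with each other, siHat1 and siSet differed in 21 genes (0.697%), with 6 higher and 15 lower in siHat1, and without the pool term in 1. With it, 300 genes (9.96%) were past an unadjusted p of 0.05. Npm3 was the clearest of the histone handling genes. It read 51.4, 10.7 and 106 CPM in siHat1, 364, 266 and 370 CPM in siSet, 133, 135 and 89.9 CPM in nt and 103 to 447 CPM in Mock. No siHat1 library reached a siSet library, and the difference was -2.33 ± 0.44 (adjusted p = 0.000455) on 26 and 38 counts. Against nt Npm3 read -0.78 ± 0.47 in siHat1 (adjusted p = 0.845) and 1.56 ± 0.44 in siSet (adjusted p = 0.0821), neither of them called.

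Both metallothioneins and a mitotic gene were higher in siHat1 than in siSet. Mt1 read 473, 514 and 940 CPM against 162, 266 and 333 CPM, a difference of 1.3 ± 0.29 (adjusted p = 0.00539), and Mt2 differed by 1.00 ± 0.23 (adjusted p = 0.00539). Top2a, the topoisomerase of dividing cells, read 453, 472 and 526 CPM against 162, 266 and 222 CPM, a difference of 1.14 ± 0.31 (adjusted p = 0.0403). None of these groups overlapped. In nt, Top2a read 300 to 568 CPM and in Mock 115 to 348 CPM. Ahcyl1, which regulates calcium release, was lower in siHat1 (-2.32 ± 0.57, adjusted p = 0.017) on 12 and 18 counts. Gm4518, a Gapdh copy, had 45 counts in siHat1 and 0 in siSet. With siSet set to a floor of 3 counts this is 4.81-fold higher relative to depth, and the 95% counting interval of the ratio starts at 3.76. Gapdh and its copies summed to 6927 to 9933 CPM in siHat1 and 4275 to 5535 CPM in siSet, a difference of 0.79 ± 0.19 (adjusted p = 0.0156). Of 17 mitochondrially encoded genes tested 4 were called lower in siHat1, beside 0.498% of all genes, namely mt-Nd4l (-1.22 ± 0.24), mt-Nd4, mt-Atp6 and mt-Nd1. The mitochondrial share, also lower in siHat1, is summed from the mitochondrially encoded genes and is no separate observation. The depth of the libraries moved with this comparison, and its part was not tested.

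**Figure D3:**
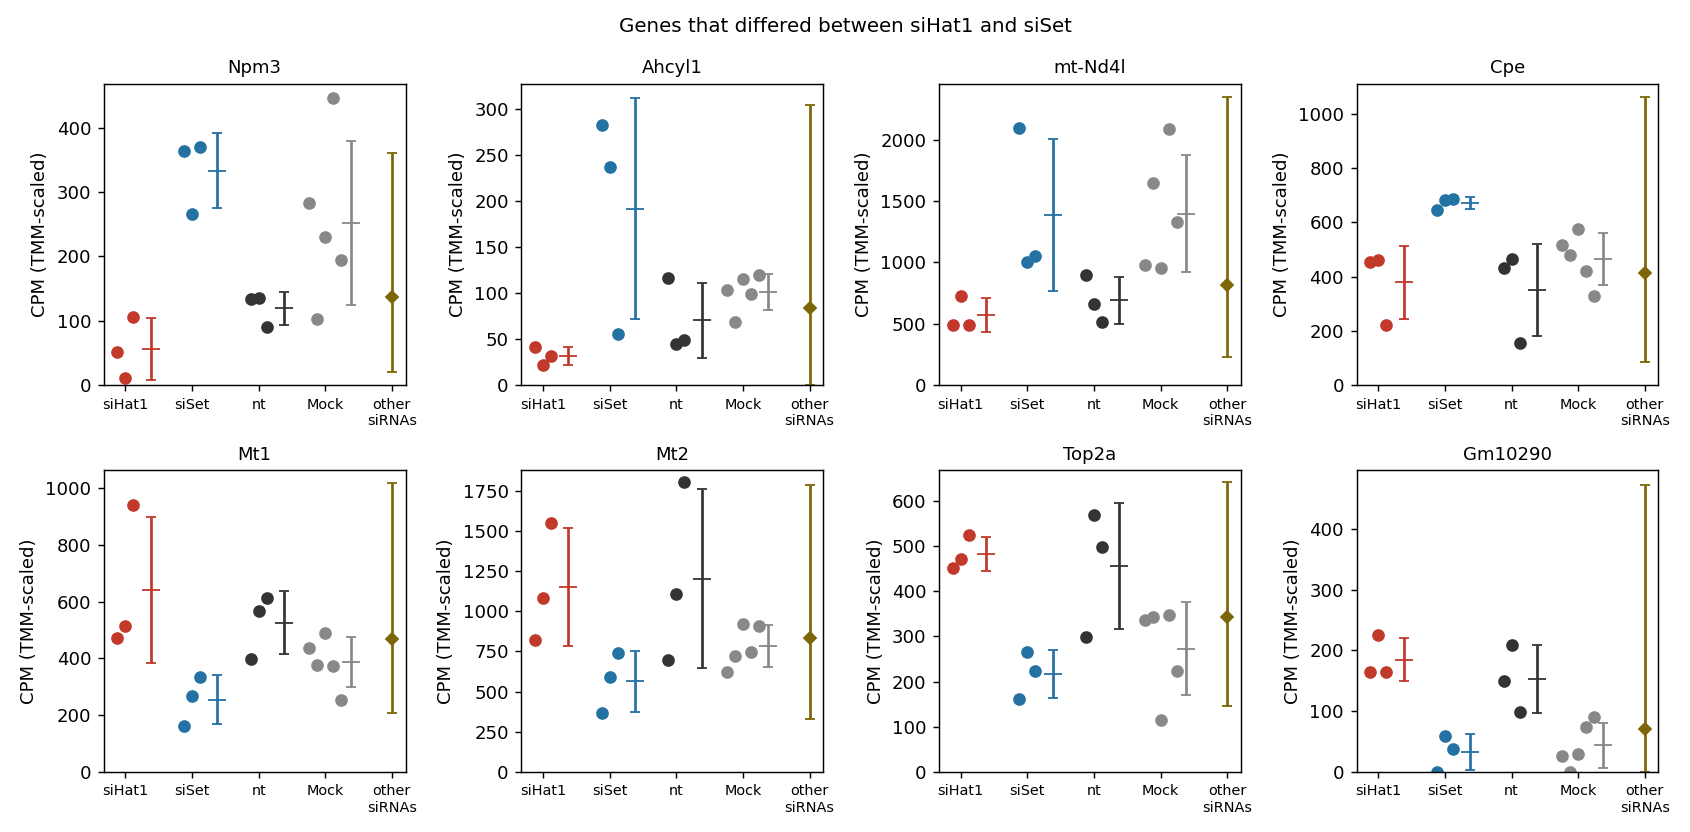
Named genes that differed between siHat1 and siSet, in CPM on linear axes, per library of siHat1, siSet, nt and Mock; points are libraries, bars the mean ± SD, and the diamond the median of the other siRNA libraries with their range. The siHat1 and siSet libraries do not overlap in Npm3 (10.7 to 106 against 266 to 370 CPM), Mt1 or Top2a.

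Of the tested genes around HAT1 and SET, 0 were called against nt. In the list on HAT1 and H3-H4 deposition 10 of 21 genes were measured well enough to be tested, and 0 were called against nt in siHat1 or siSet, beside 0.398% of all genes. Their median difference was 0.15 in siHat1 and -0.01 in siSet, where the median of all tested genes was -0.0033 and -0.06. Rbbp4, a histone-binding subunit shared by several complexes, read -0.48 ± 0.29 in siHat1 and 0.11 ± 0.35 in siSet. Tonsl, which binds new histones behind the replication fork, read 0.99 ± 0.55 and 1.06 ± 0.69. Of 17 genes in the list on SET, nucleosome assembly and H2A-H2B chaperones, 13 were tested and 0 called against nt, with medians of -0.11 and -0.16. There 11 of 13 in siHat1 and 10 of 13 in siSet had a fitted value below nt, beside 50.4% and 54.7% of all tested genes, and both counts rest on the same nt libraries. Against Mock 9 of 13 and 5 of 13 were fitted lower, and against the other siRNAs 5 of 13 and 7 of 13. Anp32e, which removes H2A.Z, read -0.80 ± 0.42 and -1.06 ± 0.59, and nucleolin (Ncl) read -0.10 ± 0.15 and -0.57 ± 0.18 (adjusted p = 0.977 and 0.16).

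The SET complex and PP2A list had 9 genes tested, and the list of lysine acetyltransferases and deacetylases 6, with 0 called against nt in either siRNA, beside 0.398% of all genes in each, a share at which no call would be expected in lists of this size. Hdac2, a class I deacetylase, read 0.22 ± 0.35 in siHat1 and 0.90 ± 0.41 in siSet. Of 92 histone genes 7 were tested and 0 called, beside the same 0.398%, in a method that primes on poly(A) tails, which most replication-dependent histone RNAs lack. The lists on DNA replication and on mitosis held 11 and 19 tested genes. Dut was the 1 call among them against nt, in siHat1, and their medians were -0.17 and 0.01 in siHat1 and 0.02 and -0.35 in siSet. In siHat1 minus siSet, Top2a was the 1 mitotic gene called, beside 0.697% of all genes.

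**Figure D4:**
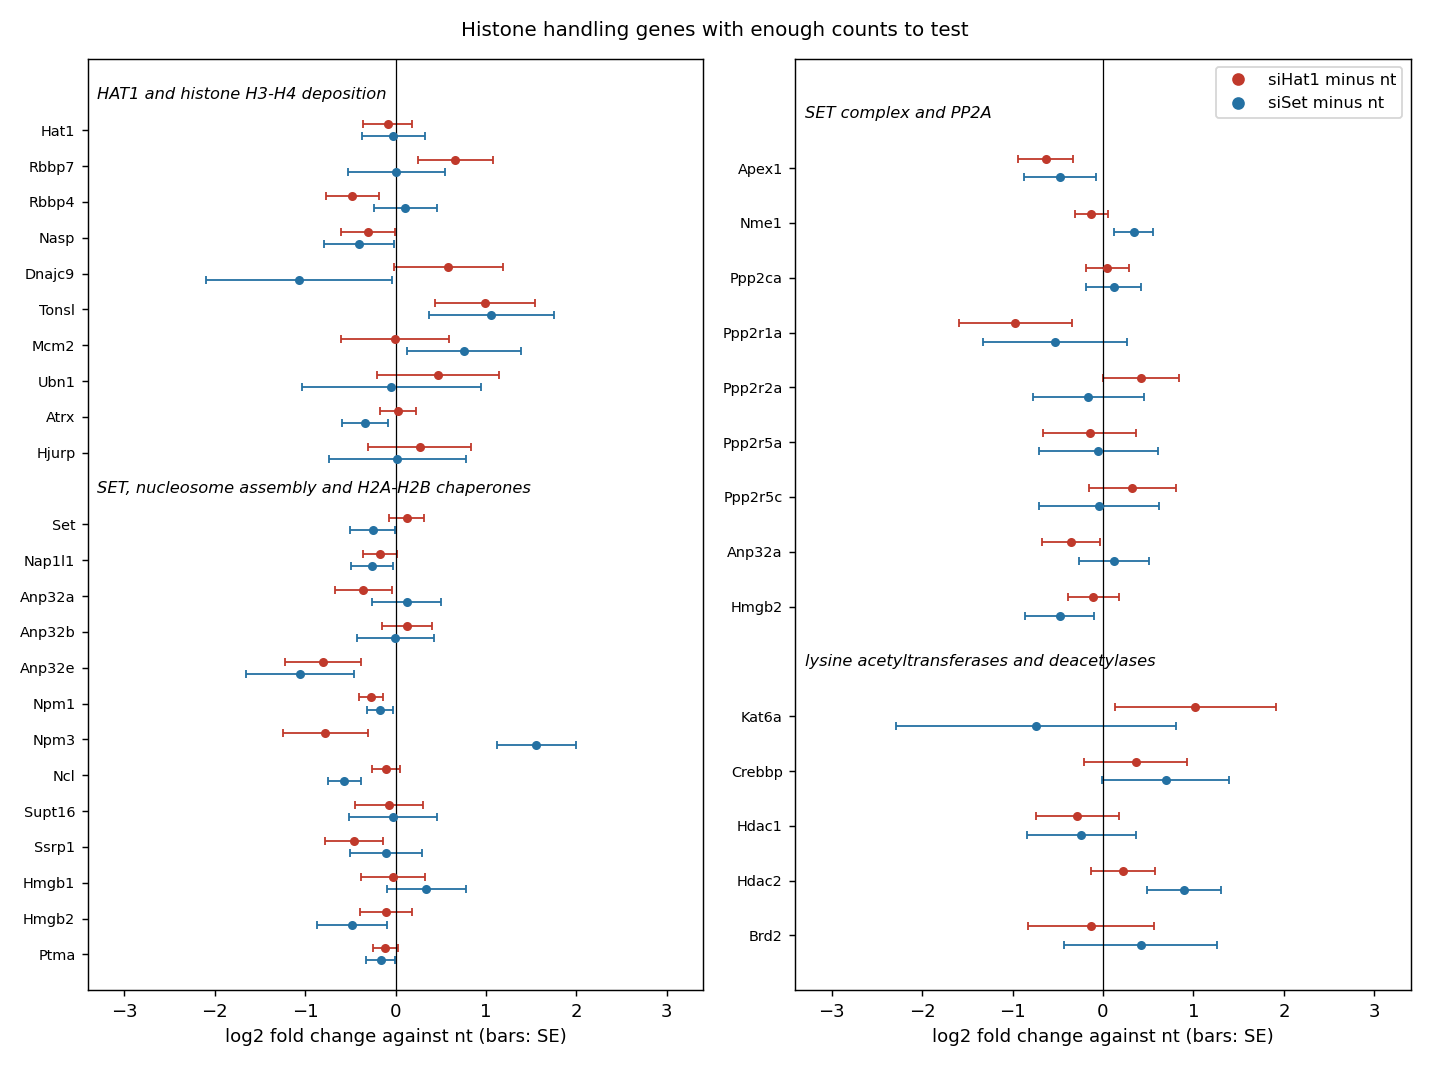
Log2 fold change against nt with SE (horizontal axis) for the tested genes of the histone handling lists (rows, 1 gene left out), in siHat1 and siSet; a gene in 2 lists is drawn in both. The bars of most genes cross 0, 0 genes are called, and Npm3 lies at -0.78 in siHat1 and 1.56 in siSet.

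Lists on cell state held few calls against nt. In the fibroblast and matrix list 32 genes were tested, and 12, 20 and 76 in those on p53 targets, heat shock proteins and cytoplasmic ribosomal proteins. Against nt, 0 of the fibroblast, p53 and heat shock genes were called in siHat1 or siSet, beside 0.398% of all genes in each. The fibroblast and matrix genes had a median of 0.31 in siHat1, with 20 of 32 fitted higher and 4 past an unadjusted p of 0.05, and of 0.0006 in siSet, beside -0.0033 and -0.06 for all genes. In siHat1 the fibroblast median was -0.09 against Mock, with 14 of 32 fitted higher, and 0.03 against the other siRNAs, with 17 of 32, and 1 gene was called lower in each, beside 1.19% and 0.266% of all genes. Against nt, the median of the heat shock genes was -0.11 in siHat1 and -0.36 in siSet. In the same comparison, Rplp0 in siSet was the 1 ribosomal protein gene called, Mt2 in siSet the 1 call of 7 immediate early and stress genes, and mt-Nd4l and mt-Co3 in siSet the 2 calls of 17 mitochondrially encoded genes. The early pluripotency list had 1 of 29 genes tested, so this depth says little about it.

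Progress along the time course was scored with the 321 genes called higher and the 347 called lower on day 6 than on day 0 in untransfected cells, together 22.2% of those tested. The score, the difference between the mean log2 CPM of these groups, was 1.37 ± 0.21 in siHat1 (SD, n = 3), 1.44 ± 0.20 in siSet, 1.49 ± 0.15 in nt and 1.39 ± 0.14 in Mock (n = 5). It was -1.44 ± 0.10 on day 0 and 1.21 ± 0.09 on day 6. Against nt and Mock of the same pools, siHat1 differed by -0.0775 (exact two-sided permutation p = 0.229, adjusted p = 0.458) and siSet by -0.0130 (exact permutation p = 0.896, adjusted p = 0.896). The smallest p that the 48 relabellings allow is 0.0208. Of the 321 genes higher on day 6, 5 were called lower and 0 higher than nt in each of siHat1 and siSet, and of the 347 lower on day 6, 2 were called higher and 0 lower in each, with nt shared. In siSet these 5 were all of its lower calls, namely Gm14776, Gm5611, Gm17060, Mt2 and Rplp0. Gm14776, Gm5611 and Gm17060 are copies of Npm1 that were also called lower in siHat1. For each of these copies nt had the highest mean of the 35 transfected conditions. Of all genes, 0.266% were called lower and 0.133% higher in siHat1, and 0.166% and 0.232% in siSet. Against the other siRNAs, 7 of the 321 were called higher and 2 lower in siHat1, and 3 and 2 of the 347, beside 1.06% and 0.266% of all genes. In siSet 2 of the 321 were called higher, and 0 of the 347 in either direction, beside 0.0996% of all genes. Within pools 1 to 3, siHat1 minus nt was -0.169, -0.154 and -0.036, lower in each, and siHat1 minus Mock was -0.121, -0.0829 and 0.0575. The siSet score differed from nt by -0.102, -0.0731 and 0.0097 and from Mock by -0.0534, -0.00225 and 0.103.

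Among all 33 siRNAs the number of genes called against nt ran from 4 to 821 with a median of 31. siHat1 and siSet, at 12 each, ranked 6 from the fewest. The equal counts came from libraries at opposite ends of the depth range, with mean totals of 145910 and 46809 counts. Tested against the other 32 siRNAs in turn, siHat1 differed in 43 genes and siSet in 10, where the median was 52.

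**Figure D5:**
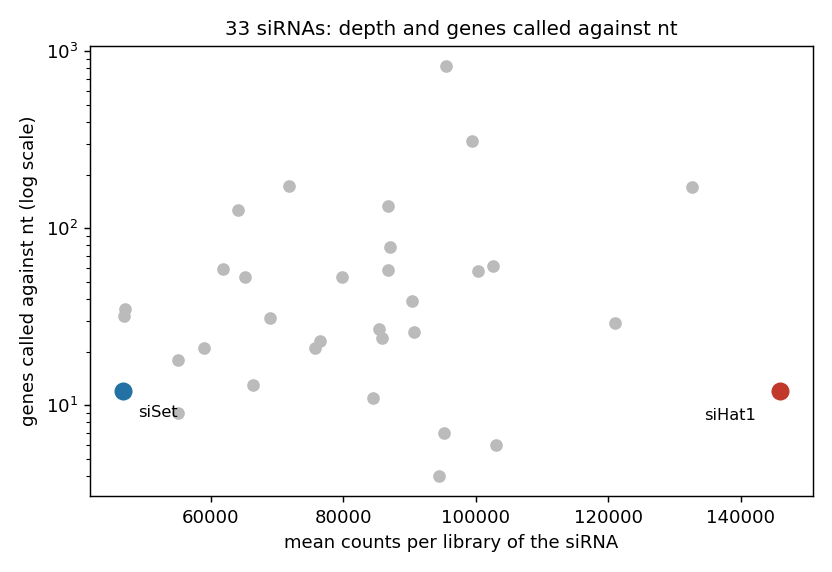
Genes called against nt (vertical axis, log scale) by mean total count per library (horizontal axis) for the 33 siRNA conditions; each point is 1 condition. siHat1 (145910 counts) and siSet (46809 counts) are at the right and left ends of the depth axis, both with 12 genes called.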

How the data were processed

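The authors mapped the CEL-Seq2 reads with Bowtie2 to mm10, the build also named in the submitters' notes (GRCm38). They corrected them by molecular identifier with the CEL-Seq2 pipeline and matched them to a GENCODE annotation, and deposited unnormalized counts per gene symbol for 129 libraries. A second table holds log2 values that the authors scaled between libraries and from which they regressed batch effects. It lists 127 libraries, and these were used. The 2 Mock columns of a pool share a name. In pool 3, where only 1 Mock library passed, it was identified by its correlation between both tables (r = 0.982 against 0.0128). Column names gave the conditions. The other 2 libraries, of 6403 and 7981 counts, entered only as an alternative.

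The counts were tested with edgeR 4.0.16 (R 4.3.3, quasi-likelihood, TMM scaling, filterByExpr by condition with a minimum count of 10) with terms for condition and replicate over all 127 libraries and 42 conditions. Of 50507 genes 3013 were tested, and p-values were adjusted by Benjamini-Hochberg over all of them. CPM values (counts-per-million) are relative to the counts in tested genes after TMM scaling. The replicate number is the sequenced pool, as the labels state, so it entered as a block. Deviations of libraries from their condition means correlated at a median r of 0.098 within a pool and -0.068 between pools, and at 0.073 and -0.057 among siHat1, siSet, nt and Mock, where 8 of 24 pairs of the same pool were over 0.1. No pair of replicate libraries agreed within sampling noise (chi-square per gene 1.35 to 2.76). Named genes were the called genes with the largest fold change, at most 10 per direction against nt and 5 otherwise, with at least 50 CPM in a condition and the same sign in every pool. To these were added Hat1, Set, called list members and genes of the histone handling lists. Npm1 and the sums over gene families were added after their values were seen. The siRNAs, the members and the gene lists were chosen with earlier results of these data known. Copies of a gene were found with BLAST+ (at least 80% identity) in the GENCODE vM21 annotation of mm10, which also gave coordinates, and siRNA sequences came from the library list of the study. The values of 1 list gene are not reported here. The code was tested on simulated data. Alternatives were DESeq2 1.42.0, limma 3.58.1 on the deposited log2 values, other scalings, filters and controls, no block, and each replicate left out. Totals of 29656 to 235292 counts per library limit the precision, and intervals cover counting error only.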

Additional observations from a re-analysis of the deposited data

Results flagged for a closer look

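Of 53 values examined in the 5 Mock libraries, the 1 group here of a size that allows it, 2 had a library far from the others. Chance alone marks about 1 in 20 such groups. The pool 3 Mock library held 83089 counts, where the other Mock libraries held 38925 to 49873. Hat1 read 490 CPM in a Mock library of pool 1, where the others read 259 to 309 CPM. That library raised the Mock mean of Hat1, which enters the comparison of siHat1 with Mock and not the one with nt.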

How the results depend on the processing

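Of 70 named calls, 0 changed direction under any alternative that gave the gene a value. When copies were summed, 30 of them had a value, since members of a family then have none of their own. Over all alternatives the call itself held in 451 of 840 values, so the calls were less stable than the directions. Of the uncalled values of Hat1, Set and Npm1 against nt, 11 of 117 changed sign, and Set in siSet moved from -0.25 to 0.03 with its copies added. The siSet time course score, -0.0130, was 0.00508 with genes chosen on day 3 and 0.0153 without replicate 1. Neither the ratio of Hat1 in siHat1 or of Set in siSet nor a score passed an unadjusted p of 0.05 under any alternative run. The counts of called genes moved more. In order, the comparisons are siHat1, siSet and both together against nt (12, 12 and 7 genes), siHat1 minus siSet (21), siHat1, siSet and both together against Mock (56, 1 and 11), and siHat1 and siSet against the other siRNAs (40 and 3). Without the replicate block the counts were 0, 0 and 3, then 1, then 14, 0 and 0, then 3 and 0, and 11 of 70 named calls held. limma on the deposited log2 values gave 0, 3 and 0, then 1, 0, 1 and 0, then 0 and 17, and 4 of 70 named calls held. DESeq2 gave 35 for siSet and 26 for both against nt, 0 for siSet and 20 for both against Mock, and 23 and 29 against the other siRNAs. RLE size factors gave 0 for siSet against Mock and 13 against the other siRNAs, and 66 of 70 named calls held. A minimum count of 20 gave 21 and 13 for siSet and both against nt, 0 for siSet against Mock and 26 against the other siRNAs. No low-count filter gave 36, 2 and 2 against Mock and 265 for siHat1 against the other siRNAs, and 34 of 70 named calls held. With all 129 libraries the counts were 5 for siHat1 and 3 for both against nt, 10 for siHat1 minus siSet, 3 for siSet against Mock and 0 against the other siRNAs. A fit of the siHat1, siSet, nt and Mock libraries alone gave 35 and 20 for siSet and both against nt, and 87, 2 and 18 against Mock. A fit of siRNA libraries alone gave 13 for siSet against the other siRNAs. With a control that joined nt and Mock, siHat1 differed in 25 genes and siSet in 3. The cause of these differences was not tested.

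Leaving out each replicate in turn gave 4 to 9 for siHat1, 3 to 6 for siSet and 3 to 6 for both against nt. It gave 3 to 8 for siHat1 minus siSet, 13 to 23, 0 to 1 and 1 to 2 against Mock, and 1 to 30 and 0 to 3 against the other siRNAs. These fits hold fewer libraries. Without replicates 1, 2 and 3 in turn, 25 of 70, 24 of 70 and 25 of 67 named calls held. Among alternatives chosen after seeing the data, leaving out the shallow siSet library of pool 1 gave 3 for siSet against nt, 10 for siHat1 minus siSet, 0 for siSet against Mock and 0 against the other siRNAs. Summing copies gave 3, 5 and 1 against nt, 0 for siSet and 3 for both against Mock, and 24 for siHat1 against the other siRNAs. When copies were summed, Dut and the sums of the Npm1 and Gm10717 families were called against nt in siHat1. In siSet Cpe, Mt2 and the sums of the Npm1, mt-Nd4l and mt-Co3 families were called. Zfp266, Fundc2 and H19 in siHat1 and Eif4a3 in siSet did not remain called. At this depth 3013 of 50507 genes could be tested, which limits what could be seen of low genes.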

Other observations

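Untransfected cells give the course of the targeted genes themselves. Hat1 read 20.5 to 74.5 CPM on day 0 and 104 to 199 CPM on day 6 in the time course, a difference of 1.21 ± 0.48 on the log2 scale (edgeR, adjusted p = 0.0563). Set read 390 to 529 CPM on day 0 and 786 to 1084 CPM on day 6 and rose by 0.91 ± 0.21 (adjusted p = 0.000325). Day 3 minus day 0 was -0.28 ± 0.62 for Hat1 and -0.43 ± 0.25 for Set, neither called (adjusted p = 0.838 and 0.302). Npm1 read 657 to 868 CPM on day 0 and 1795 to 2259 CPM on day 6. The summed level of Npm1 and its copies was 1682 to 2207 CPM on day 0.

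The letters that pair with the seed of each listed siRNA were searched on the sense strand in the annotated 3′ UTRs of 2418 tested genes. AAATACC, for siHat1 siRNA 1, was in 12.1% of them and GAAACTA, for siHat1 siRNA 2, in 11.5%. AGCAGAA, for siSet siRNA 1, was in 18.5% and AGGTGTC, for siSet siRNA 2, in 8.77%. Genes with AAATACC had a median difference between siHat1 and nt of -0.02, and those without it -0.01. For GAAACTA these medians were 0.04 and -0.02, and for AGCAGAA and AGGTGTC in siSet they were -0.04 against -0.08 and -0.03 against -0.07. Against the other siRNAs the order turned for GAAACTA (-0.02 with a match and 0.01 without), AAATACC (0.04 and 0.01) and AGGTGTC (-0.05 and -0.04), and the medians for AGCAGAA were both -0.04. Of the 3 genes called lower in siHat1 than in nt that had a UTR, 0 held AAATACC and 1 held GAAACTA. Of the 2 in siSet, 0 held either match. A match of these letters is a description and not a site of binding.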
